A study of Gallus gallus with 38 samples.

Results

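Hedgehog, BMP and WNT5A signals pattern the gut wall, and 8 of their genes were looked up on the arrays by platform symbol, with the probe set of the highest mean taken for each. A named probe set was found for 6 of the 8, and each of the 6 had 1 probe set among the 18308 tested: the Hedgehog receptor *PTCH1*, the Hedgehog transcription factor *GLI2*, the ligands *BMP2*, *BMP4* and *BMP7*, and the ligand *WNT5A*. The Hedgehog ligands *SHH* and *IHH* were not analysed here. The genes were compared between the cecum and the jejunum of the same birds, and then among the birds within each tissue.

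The samples were scrapings of cecum mucosa and jejunum mucosa (19 arrays each) from Ross 308 male broilers slaughtered at 42 days, 6 weeks in the labels. All birds were vaccinated against coccidiosis and viral diseases and ate the same 3-phase standard diet, so the groups differ in the labels by tissue alone. Numbers 1 to 19 occur in the labels of both tissues and were taken as 19 birds, as the methods describe 19 subjects, whereas the labels speak of 38 birds. Slides and scan dates are not given in the labels, so no batch could be examined. By the methods the birds were reared in several pens. The pen of a bird was not used here, and the tests across birds treat them as independent.

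In the vertebrate gut, the epithelium releases Hedgehog ligands that bind PTCH1 on cells of the underlying mesenchyme. PTCH1 otherwise holds back the transducer SMO, and the released signal acts through the GLI transcription factors. BMPs are ligands of the TGF-beta family, made to a large part by mesenchymal cells of the gut. They restrain stem cell activity in the crypt and are themselves held in check by secreted antagonists. WNT5A is a ligand of the noncanonical WNT branch, read by ROR and RYK receptors, and in the mouse it is needed for the gut tube to lengthen.

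The deposited values are log2 signals with 2 decimals, and array medians ran from 5.57 to 5.75. All 6 cecum markers and all 6 jejunum markers (genes such as *HOXA10*, and the absorption genes *SI* and *APOB*) ran in the labelled direction. These markers were chosen with earlier results of these data known, so their direction is not an independent check of the labels. Their 2 list means never overlapped between the tissues: cecum markers averaged 8.78 to 10.07 on cecal arrays and 3.98 to 5.57 on jejunal arrays, and jejunum markers 3.49 to 6.80 on cecal arrays and 8.88 to 11.50 on jejunal arrays. The jejunum marker means nearest to the other tissue came from the cecal array of bird 12 and the jejunal array of bird 19. A free-text label names oxyntic mucosa for every sample, but the 3 measured markers of that stomach lining averaged 3.85 ± 0.22 in cecum and 3.92 ± 0.22 in jejunum (SD, n = 19 each), below the array medians. An array's median correlation with the others of its tissue was lowest for the cecal arrays of birds 3 and 2 (0.918 and 0.971) and the jejunal arrays of birds 19 and 5 (0.951 and 0.956). Results without these 4 arrays are given beside the genes.

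The BMP and WNT5A ligands were higher in the cecum, and *PTCH1* was not separated from a difference of 0. *BMP7*, *BMP4* and *WNT5A* were 4.23, 3.44 and 3.23 times as high in cecum as in jejunum, and in 19 of 19 birds the cecum had the higher value of each. *BMP2* and *GLI2* were also higher in cecum, by smaller amounts. A transcript was called a DET at a fold change ratio (FCR) of at least 2 and an adjusted p under 0.05. By this rule 3 of the 6 genes were DETs on the cecal side, where 3.62% of all probe sets were. At the adjusted p alone 5 of 6 were higher in cecum, against 25.1% of all probe sets, and 0 were higher in jejunum. The genes were chosen with earlier results of these data known, so these counts beside the background are a description and not a test. The median difference of the 6 genes was 1.30 on the log2 scale, and that of all probe sets was 0.03, with quartiles of -0.16 and 0.22.

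**Figure D1:**
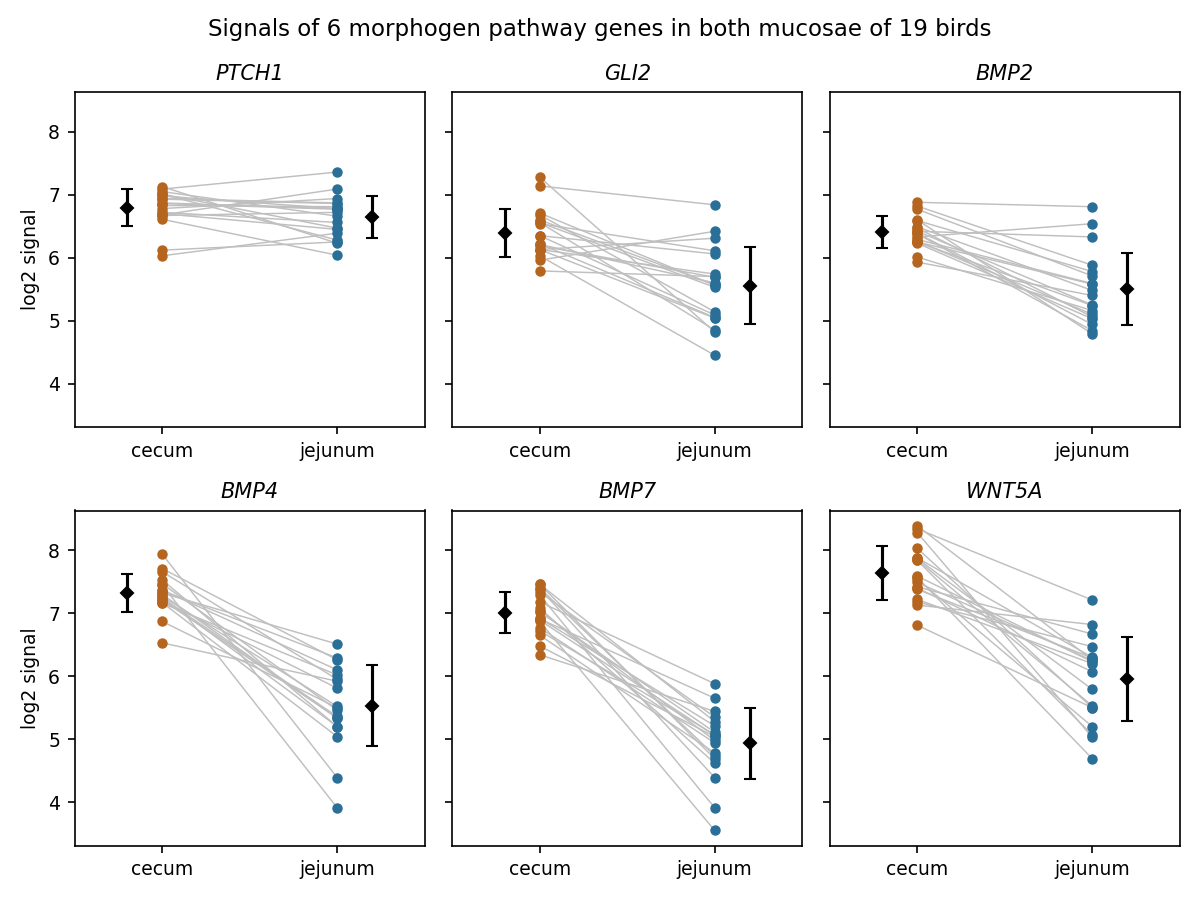
Log2 signal of each gene in the cecum (left, orange) and jejunum (right, blue) of 19 birds, with grey lines joining the tissues of a bird and black diamonds and bars for the mean ± SD of 19 arrays. The cecal and jejunal points do not overlap for *BMP4* and *BMP7*, overlap in few arrays for *WNT5A*, and cover the same range for *PTCH1*.

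Among the ligands, *BMP7* encodes a BMP that can pair with BMP2 or BMP4 in a heterodimer. Its log2 signal was 6.34 at the lowest, 7.02 at the median and 7.46 at the highest in cecum, against 3.55, 5.04 and 5.88 in jejunum. Every cecal array therefore stood above every jejunal array, a pattern shown by 1.22% of all probe sets. The lowest jejunal values came from birds 2 and 6 (3.55 and 3.91), and the highest from bird 5. The mean was 7.01 ± 0.33 in cecum and 4.93 ± 0.56 in jejunum (SD, n = 19 each), a difference of 2.08 (SE 0.14, 95% interval 1.79 to 2.37; limma, adjusted p = 3.8e-16). Within birds the difference ran between 0.90 and 3.38. In the order of differences towards the cecum, *BMP7* took rank 97 of 18308, the highest of the 6 genes.

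*BMP4* encodes the BMP best known as a mesenchymal target of Hedgehog signals in the gut of chick and mouse embryos. In cecum its lowest, median and highest log2 signals were 6.53, 7.30 and 7.94, and in jejunum 3.91, 5.50 and 6.51. The tissues again did not overlap, but the gap was narrow: the lowest cecal array, that of bird 16, lay just above the highest jejunal array, that of bird 5. *BMP4* averaged 7.32 ± 0.30 in cecum and 5.53 ± 0.65 in jejunum (SD, n = 19 each), and the difference was 1.78 (SE 0.16, 95% interval 1.47 to 2.10; adjusted p = 7.0e-13). Birds 6 and 2 had differences of 3.55 and 3.54, and bird 16 had the smallest, 0.61.

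*WNT5A* had log2 signals of 6.81, 7.57 and 8.39 in cecum (lowest, median, highest), against 4.69, 6.20 and 7.21 in jejunum. Here the tissues overlapped in a few arrays: 16 of 19 cecal arrays lay above the highest jejunal array, and 17 of 19 jejunal arrays below the lowest cecal one. The mean was 7.64 ± 0.43 in cecum and 5.95 ± 0.67 in jejunum (SD, n = 19 each), which gave a difference of 1.69 (SE 0.17, 95% interval 1.34 to 2.04; adjusted p = 5.9e-11). The difference within birds was smallest in bird 17 (0.31) and largest in bird 6 (3.25). *WNT5A*, *BMP4* and *BMP7* were the 3 genes higher in the cecum of all birds, as were 4.69% of all probe sets.

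*BMP2*, which encodes the close relative of BMP4, had log2 signals of 5.93, 6.39 and 6.88 in cecum (lowest, median, highest) and of 4.79, 5.40 and 6.81 in jejunum. Most jejunal arrays (16 of 19) were below all cecal ones, while those of birds 5, 17 and 9 (6.81, 6.54 and 6.33) reached into the cecal range. Its mean was 6.41 ± 0.25 in cecum and 5.50 ± 0.57 in jejunum (SD, n = 19 each). The difference of 0.91 (SE 0.14, 95% interval 0.63 to 1.19; adjusted p = 4.3e-07) corresponds to an FCR of 1.88, short of a DET, and the cecal value was the higher one in 18 of 19 birds, the exception being bird 17. Without the 4 least correlated arrays the difference was 1.00, which made *BMP2* a DET (adjusted p = 3.5e-08). Those arrays include the jejunal array of bird 5, the highest jejunal one for *BMP2*.

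The receptor gene *PTCH1* is itself a target of the pathway, so its level is often used as a readout of Hedgehog activity. Its log2 signal was 6.03, 6.86 and 7.13 in cecum (lowest, median, highest) and 6.04, 6.72 and 7.36 in jejunum. The ranges were nearly the same, and the highest array of all was the jejunal array of bird 5. *PTCH1* averaged 6.79 ± 0.29 in cecum and 6.65 ± 0.33 in jejunum (SD, n = 19 each), with a difference of 0.14 (SE 0.10, 95% interval -0.06 to 0.34; adjusted p = 0.262) and a higher value in the cecum of 13 of 19 birds. The 2 lowest cecal values, 6.03 and 6.12, were from birds 3 and 2, whose cecal arrays are 2 of the 4 least correlated ones. Without those 4 arrays the difference was 0.28 with an adjusted p of 0.0037, and with array weights it was 0.19 with an adjusted p of 0.041. Over the 9 alternatives the adjusted p of *PTCH1* lay between 0.0037 and 1, the last from a test against a 2-fold change.

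*GLI2* encodes the GLI factor that acts as the main activator in the mouse. Its lowest, median and highest log2 signals were 5.79, 6.35 and 7.28 in cecum, against 4.45, 5.57 and 6.84 in jejunum. Jejunal arrays below all cecal ones numbered 14 of 19, and only 2 cecal arrays stood above all jejunal ones. The mean was 6.40 ± 0.38 in cecum and 5.56 ± 0.61 in jejunum (SD, n = 19 each), a difference of 0.84 (SE 0.16, 95% interval 0.52 to 1.16; adjusted p = 2.1e-05) and an FCR of 1.79. The cecal value was the higher one in 17 of 19 birds, and birds 9 and 19 had the higher value in jejunum. Leaving out the 4 arrays moved the difference to 1.03 and made *GLI2* a DET (adjusted p = 1.5e-07), so that 5 of the 6 genes were then DETs. The share of DETs among all probe sets was not counted in that setting. Among the arrays left out were the lowest cecal value of *GLI2* (5.79, bird 3) and its highest jejunal values (6.84 and 6.42, birds 5 and 19). The 3 genes that were DETs with all arrays had differences of 2.20 (*BMP7*), 1.88 (*BMP4*) and 1.81 (*WNT5A*) without those arrays.

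The rest of each pathway was counted in lists written by hand, with 95 genes in all, 73 of them measured. All lists, here and below, were chosen with earlier results of these data known. Their counts beside the shares of all probe sets are therefore a description and not a test. In the Hedgehog list, 16 of 22 genes were measured: 9 were higher in cecum and 2 higher in jejunum at the adjusted p, where 25.1% and 20.1% of all probe sets were, and 5 passed in neither direction. As DETs, 2 genes lay on the cecal side and 1 on the jejunal side, against 3.62% and 3.68% of all probe sets. The median difference of the list was 0.32.

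All 4 measured Hedgehog receptor genes besides *PTCH1* were higher in cecum at the adjusted p, against 25.1% of all probe sets. They were *SMO*, the transducer that PTCH1 inhibits (difference 0.55, SE 0.10, adjusted p = 5.2e-06), the coreceptor genes *BOC* (1.00, SE 0.14, adjusted p = 2.0e-07, higher in 19 of 19 birds) and *GAS1* (0.29, adjusted p = 0.0205), and *HHIP* (0.97, SE 0.25, adjusted p = 0.00111), whose product binds and sequesters the ligands. The cecal value was the higher one in 17 of 19 birds for *SMO*, 16 for *GAS1* and 14 for *HHIP*. *GLI1*, a further readout of pathway activity, was higher in cecum by 0.44, in 18 of 19 birds (SE 0.07, adjusted p = 8.6e-07). *GLI3*, whose product acts mainly as the repressor, had a difference of -0.28 (adjusted p = 0.0885). The mesenchymal forkhead genes *FOXF1* and *FOXL1*, which Hedgehog signals maintain in the mouse gut, were higher in cecum by 1.02 (adjusted p = 1.1e-05) and 0.44 (adjusted p = 0.00106), and so were 2 regulators at the primary cilium, *GPR161* by 0.47 (adjusted p = 1.4e-04) and *KIF7* by 0.33 (adjusted p = 2.8e-04). The calls of *BOC* and *FOXF1* as DETs sat at the threshold, and both were lost when the arrays were centred on their medians. *GAS1* then had an adjusted p of 0.063, and it also did not pass with quantile normalization (0.066) or without the 4 least correlated arrays (0.051).

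On the jejunal side stood *DISP1*, which encodes the transporter that releases Hedgehog ligands from the cells that make them. Its log2 signal was 4.22, 5.13 and 5.48 in cecum (lowest, median, highest) and 5.65, 6.24 and 6.72 in jejunum. Every cecal array lay below every jejunal one, as for 1.73% of all probe sets. The difference was -1.18 (SE 0.10, adjusted p = 1.6e-13), with the higher value in the jejunum of all birds, as for 4.91% of all probe sets. *SCUBE2*, whose product helps to free the ligand, was also lower in cecum (difference -0.41, adjusted p = 0.0343), and its call was lost with the bird as a block (adjusted p = 0.052).

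In the BMP list 28 of 39 genes were measured. At the adjusted p, 11 were higher in cecum and 7 higher in jejunum, against 25.1% and 20.1% of all probe sets, and 10 passed in neither direction. The jejunal count lies near that background, and the median difference of the list was 0.08. As DETs, 3 genes were higher in cecum and 2 in jejunum, against 3.62% and 3.68% of all probe sets. Of the 6 other ligand genes, *BMP5* (0.97, adjusted p = 1.1e-06) and *BMP6* (0.81, adjusted p = 3.6e-05) were higher in cecum, and *BMP3*, which encodes an atypical BMP that opposes the others, was higher in jejunum (-1.01, adjusted p = 5.1e-09). *BMP3* had a second probe set with a difference of 0.12 (adjusted p = 0.316), so its probe sets disagree.

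Of the 10 measured BMP antagonists and binding proteins, 7 were higher in cecum and 1 in jejunum, beside backgrounds of 25.1% and 20.1%. *CHRDL1*, a chordin-like antagonist, had log2 signals of 5.63, 6.93 and 8.05 in cecum (lowest, median, highest) and 3.99, 4.59 and 5.27 in jejunum. The tissues did not overlap, and its difference of 2.42 (SE 0.15, adjusted p = 1.8e-17) was larger than that of any of the 6 genes above. *FST*, the gene of follistatin, differed by 1.33 (adjusted p = 7.1e-09) and *TWSG1*, whose product binds BMPs together with chordin, by 1.13 (adjusted p = 1.2e-08). *BMPER* and *GREM1*, both encoding BMP-binding proteins, were higher in cecum by 0.97 (adjusted p = 5.7e-07) and 0.71 (adjusted p = 0.0186). The cecal value was the higher one in 17 of 19 birds for *BMPER* and in 12 for *GREM1*. Within birds the difference of *GREM1* ran between -1.18 and 3.53, and its adjusted p with the bird as a block was 0.0466. *NOG* and *CHRD*, the genes of noggin and chordin, had differences of 0.03 and 0.11 (adjusted p = 0.845 and 0.307), and the sign of *NOG* turned when arrays were centred. *SOSTDC1*, which encodes an antagonist of both BMP and WNT signals, went the other way (-1.28, SE 0.12, adjusted p = 5.1e-12).

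None of the 5 measured BMP receptor genes was higher in cecum at the adjusted p, and 3 were lower, where 20.1% of all probe sets were: *BMPR1A* (-0.34, adjusted p = 0.00143), *BMPR2* (-0.42, adjusted p = 5.9e-04) and *ACVR2A* (-0.52, adjusted p = 1.7e-06). *BMPR1B* had a difference of -0.06 (adjusted p = 0.565). Among the signal transducers, named here, like *ACVR2A*, after their values were seen, *SMAD5* (-0.38, adjusted p = 9.9e-05) and the inhibitory *SMAD6* (-0.24, adjusted p = 0.00378) were lower in cecum and *SMAD9* was higher (0.60, adjusted p = 0.00142). *SMAD1* was lower in the cecum of 18 of 19 birds with a difference of -0.38, and its adjusted p was 0.115 without and 1.2e-04 with the bird as a block. The 3 measured BMP target genes were also named after their values were seen. *ID4* was higher in cecum (0.88, adjusted p = 1.3e-10), in 19 of 19 birds. *MSX1* and *MSX2* had differences of 0.09 and 0.07 (adjusted p = 0.58 and 0.607). Whether the roles differ in direction was not tested.

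The noncanonical WNT list had 29 of 34 genes measured, and at the adjusted p 16 were higher in cecum and 4 higher in jejunum, against 25.1% and 20.1% of all probe sets, and 9 passed in neither direction. The share in jejunum, 13.8%, is below the background, and the median difference was 0.24. The 2 DETs on the cecal side, against 3.62% of all probe sets, *FRZB* (1.80, SE 0.14, adjusted p = 4.0e-14) and *WIF1* (1.69, SE 0.12, adjusted p = 5.5e-16), both encode secreted proteins that bind WNT ligands, and in 19 of 19 birds both had their higher value in cecum. Of the 6 measured genes of secreted WNT inhibitors, 3 were higher in cecum and 1 in jejunum, beside backgrounds of 25.1% and 20.1%. The 1 higher in jejunum was *DKK3* (-0.72, adjusted p = 1.4e-07), named after its value was seen. Of the receptors of WNT5A, *ROR2* (0.62, adjusted p = 4.4e-05) and *RYK* (0.28, adjusted p = 2.9e-04) were higher in cecum. *ROR1* had a difference of 0.23 (adjusted p = 0.0636). The coreceptor gene *PTK7* (0.95, adjusted p = 1.4e-09) and the frizzled receptor genes *FZD1* (0.93, adjusted p = 1.6e-07) and *FZD4* (0.84, adjusted p = 1.9e-06) were higher in cecum, each under a 2-fold change. *WNT5B* was higher in cecum by 0.41 (adjusted p = 1.3e-04) and *WNT11* was lower (-0.22, adjusted p = 0.0271).

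**Figure D2:**
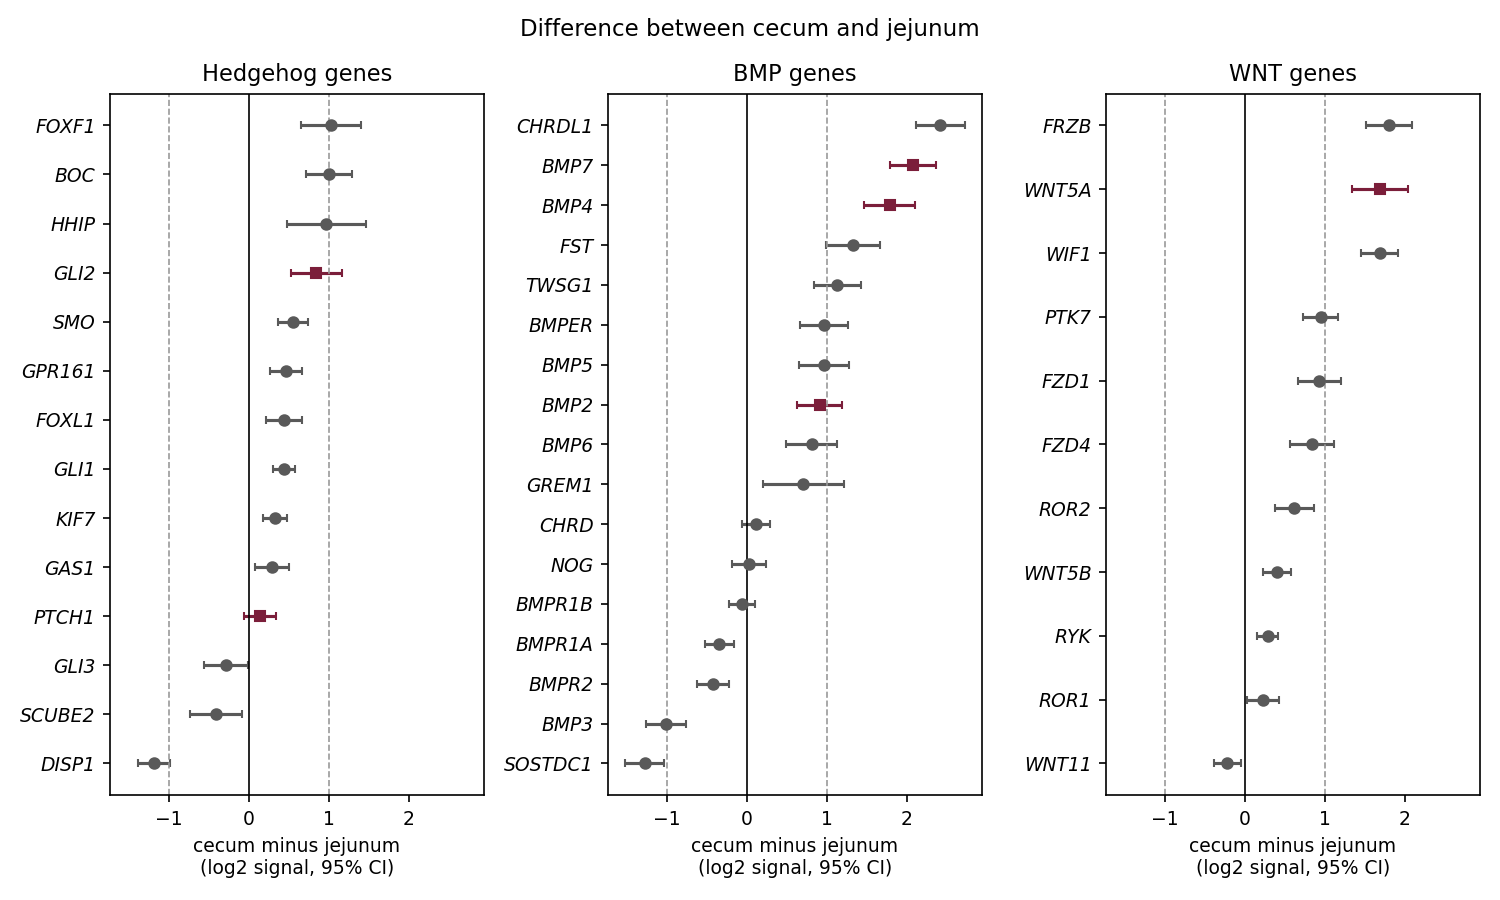
Difference in log2 signal, cecum minus jejunum, with its 95% interval from limma (19 arrays per tissue), for the 6 genes (red squares) and the named genes of the Hedgehog, BMP and WNT lists (grey circles). Dashed lines mark a 2-fold change. The whole interval lies beyond it for *BMP7*, *BMP4*, *WNT5A*, *CHRDL1*, *FRZB* and *WIF1* on the cecal side and for *SOSTDC1* on the jejunal side.

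The birds differed more in the jejunum than in the cecum for all 6 genes, whereas 43.7% of all probe sets had the larger SD in jejunum. The SD in jejunum was 2.29 times that in cecum for *BMP2*, 2.13 for *BMP4*, 1.68 for *BMP7*, 1.60 for *GLI2*, 1.55 for *WNT5A* and 1.12 for *PTCH1*. These ratios are a description and were not tested. Means of the cell marker lists described below had SDs in jejunum and cecum of 0.86 and 0.39 (fibroblast) and 0.85 and 0.43 (smooth muscle). For the leukocyte list they were 0.32 and 0.34. The part of cell make-up in the spread of the genes was not tested. The same few birds stood at the ends of the jejunal range: bird 5 had the highest jejunal value of all 6 genes, and bird 2 the lowest of *GLI2*, *BMP4*, *BMP7* and *WNT5A*. The jejunal array of bird 5, among the 4 least correlated ones, also had the highest jejunal fibroblast and smooth muscle means (8.93 and 8.65). That of bird 2 had the lowest (5.42 and 5.30). Bird 6 had the largest difference between its tissues for 5 of the 6 genes (all but *BMP2*).

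A bird's level in the cecum did not go with its level in the jejunum for any of the genes at an adjusted p under 0.05. Over 19 birds, Pearson's r between the tissues was highest for *BMP2* (0.40, permutation p = 0.0841, adjusted over 6 genes 0.445; Spearman's rho 0.34) and *PTCH1* (0.35, permutation p = 0.148; rho 0.20). It lay at 0.01 for *GLI2*, -0.09 for *WNT5A*, -0.16 for *BMP7* and -0.22 for *BMP4*. Without the 2 birds farthest from the median in cecum, *BMP2* had an r of 0.23 and *PTCH1* of 0.10.

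Within a tissue the genes varied together, in most pairs in jejunum and in few in cecum. Of 15 pairs per tissue, 4 passed an adjusted p of 0.05 in cecum (median r 0.34) and 14 in jejunum (median r 0.77), in permutation tests adjusted over 30 relations. The share of all pairs of probe sets that would pass was not computed, so these counts have no background beside them. In cecum the pairs were *GLI2* with *WNT5A* (r = 0.67, rho = 0.62, adjusted p = 0.00415), *PTCH1* with *GLI2* (0.66, rho = 0.66, adjusted p = 0.00653), *BMP2* with *WNT5A* (0.55, rho = 0.56, adjusted p = 0.0244) and *PTCH1* with *WNT5A* (0.51, rho = 0.62, adjusted p = 0.0381). A further setting left out the 2 birds farthest from the median of the first-named gene of a pair. *GLI2* with *WNT5A* then had an r of 0.47 (adjusted p = 0.095) and *BMP2* with *WNT5A* of 0.39 (adjusted p = 0.19). In permutation tests of rho with all birds, these 2 pairs passed (adjusted p = 0.0124 and 0.0236).

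In jejunum the closest pairs were *BMP4* with *BMP7* (r = 0.90, rho = 0.82), *GLI2* with *WNT5A* (0.90, rho = 0.91) and *BMP4* with *WNT5A* (0.89, rho = 0.92), each with an adjusted p of 7.5e-05 from the smallest permutation p possible, 1e-05. Without the 2 birds farthest from the median of the first-named gene, their r was 0.77, 0.83 and 0.85. *PTCH1* with *BMP2* (0.49, adjusted p = 0.0512) was the pair that did not pass. *BMP4* and *BMP7*, so close in jejunum, had an r of 0.02 in cecum (adjusted p = 0.946), and whether the r of a pair differs between tissues was not tested. The genes of a pair were read on the same arrays and share the cell make-up of each scraping.

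**Figure D3:**
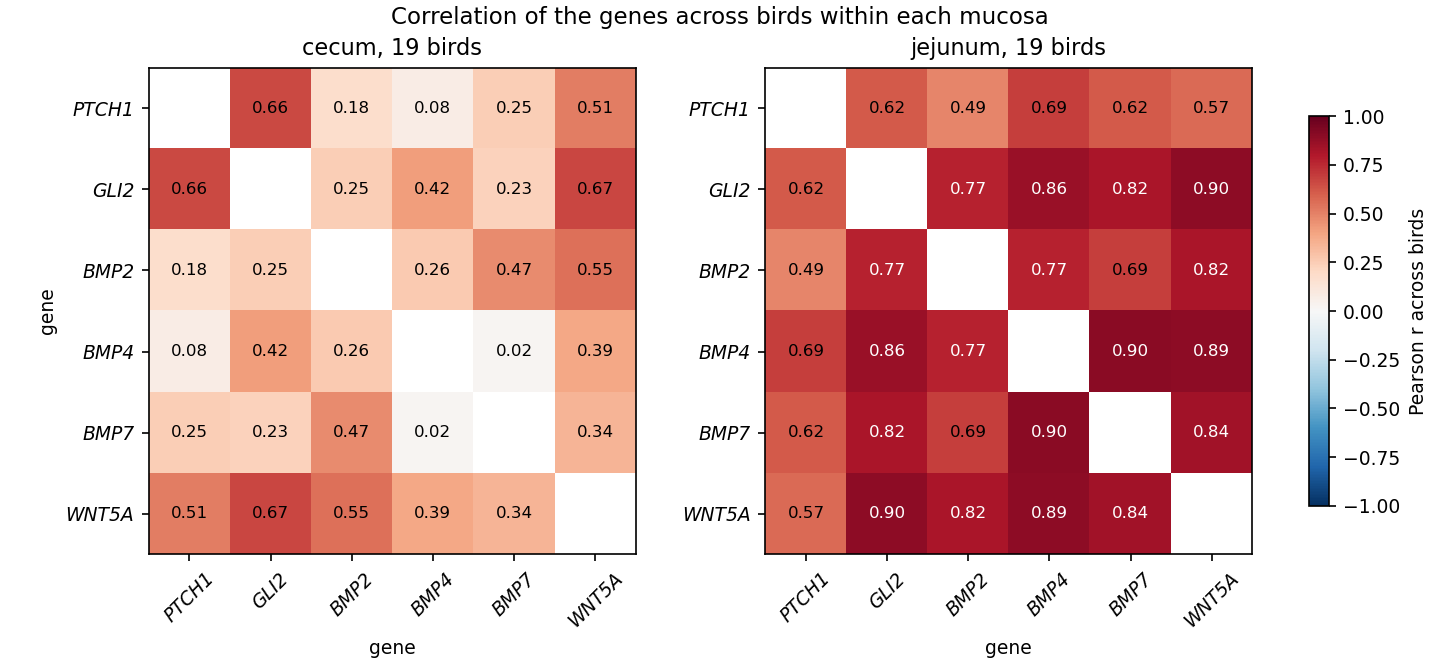
Pearson's r between the log2 signals of each pair of genes over 19 birds, in cecum (left) and jejunum (right), with colour from -1 (blue) to 1 (red). All pairs are positive, and the median r is 0.34 in cecum and 0.77 in jejunum.

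Markers of mesenchymal cells were higher in cecum, as were 5 of the 6 genes, and within jejunum they varied with all 6. Since a scraping holds many cell types, fewer cells of a type and less RNA per cell cannot be told apart. The mean of the 5 smooth muscle markers measured of 10 lay between 7.66 and 9.45 on cecal arrays and between 5.30 and 8.65 on jejunal arrays, and that of the 8 fibroblast markers measured of 10 between 8.12 and 9.56 on cecal arrays and between 5.42 and 8.93 on jejunal arrays. All 5 and all 8 were higher in cecum at the adjusted p, against 25.1% of all probe sets. The list means differed by 1.42 and 1.19 in the same direction, each in 18 of 19 birds. Endothelial markers (7 of 8 measured) differed by 0.60 and neuron and glia markers (7 of 10) by 0.50. Epithelial markers (7 of 10) differed by 0.36 and leukocyte markers (7 of 8) by -0.59. Within these lists the genes were mixed. At the adjusted p, 5, 4, 4 and 1 of them were higher in cecum, in the same order (25.1% of all probe sets). Higher in jejunum were 0, 2, 0 and 4 (20.1% of all probe sets). The part of these cell types in the tissue differences of the 6 genes was not tested.

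In cecum, 4 of 24 relations between a gene and the mean of a marker list (smooth muscle, fibroblast, neuron and glia, epithelium) passed an adjusted p of 0.05, and in jejunum 13 of 24. How many relations of all probe sets would pass was not counted. For the fibroblast list in cecum, r was 0.82 for *WNT5A* (rho = 0.82, adjusted p = 1.3e-04) and 0.76 for *GLI2* (rho = 0.66, adjusted p = 5.2e-04). An r as high was seen for 0.388% and 1.02% of all probe sets. Without the 2 birds whose list mean was farthest from its median, *WNT5A* had an r of 0.74 (adjusted p = 0.00278) and *GLI2* of 0.53 (adjusted p = 0.0854). Smooth muscle markers in cecum went with *GLI2* (r = 0.73, adjusted p = 0.00151) and *PTCH1* (0.55, adjusted p = 0.0475), and without 2 birds neither passed (0.48 and 0.42). With all birds, 1.04% and 6.29% of all probe sets had an r as high. In cecum *BMP2*, *BMP4* and *BMP7* passed with neither the fibroblast nor the smooth muscle list (adjusted p between 0.0648 and 0.361).

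In jejunum all 6 genes went with both lists. With the fibroblast markers r was 0.98 for *BMP4* (rho = 0.95), 0.92 for *WNT5A* (rho = 0.95), 0.90 for *GLI2* (rho = 0.91) and 0.89 for *BMP7* (rho = 0.82), each with an adjusted p of 6.9e-05. For *BMP4*, 0.0601% of all probe sets had an r as high with these markers, for *WNT5A* 0.879%, for *GLI2* 1.23% and for *BMP7* 1.42%. *BMP2* (0.81, rho = 0.88) and *PTCH1* (0.67, rho = 0.62) followed, with an r as high for 2.89% and 6.35% of all probe sets. The relation of *PTCH1* did not pass without 2 birds (0.54, adjusted p = 0.0816). With the smooth muscle markers r ran between 0.67 for *PTCH1* and 0.91 for *GLI2*, and without 2 birds *PTCH1* again did not pass (0.51, adjusted p = 0.105). Of all probe sets, 5.96% had an r with these markers as high as that of *PTCH1*, and 0.371% as high as that of *GLI2*. With the epithelial markers *PTCH1* was the 1 gene to pass, and its relation was negative (r = -0.82, rho = -0.84, adjusted p = 6.9e-05). An r as high as this or higher was seen for 99.9% of all probe sets.

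On 6 jejunal arrays the mean of the fibroblast markers was within the cecal range, between 8.19 and 8.93, beside a cecal median of 8.69. On these 6 arrays *BMP4* lay between 5.95 and 6.51 and *BMP7* between 4.98 and 5.88. The lowest cecal arrays had 6.53 for *BMP4* and 6.34 for *BMP7*. Every jejunal array lay below these values, so for these genes the outcome on the 6 arrays was fixed beforehand. *WNT5A* lay between 6.26 and 7.21, with 4 of the 6 arrays below the lowest cecal one. *BMP2* was below its lowest cecal array on 3 of the 6, *GLI2* on 1 and *PTCH1* on 0. Whether the tissues differ at an equal marker level was not tested.

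**Figure D4:**
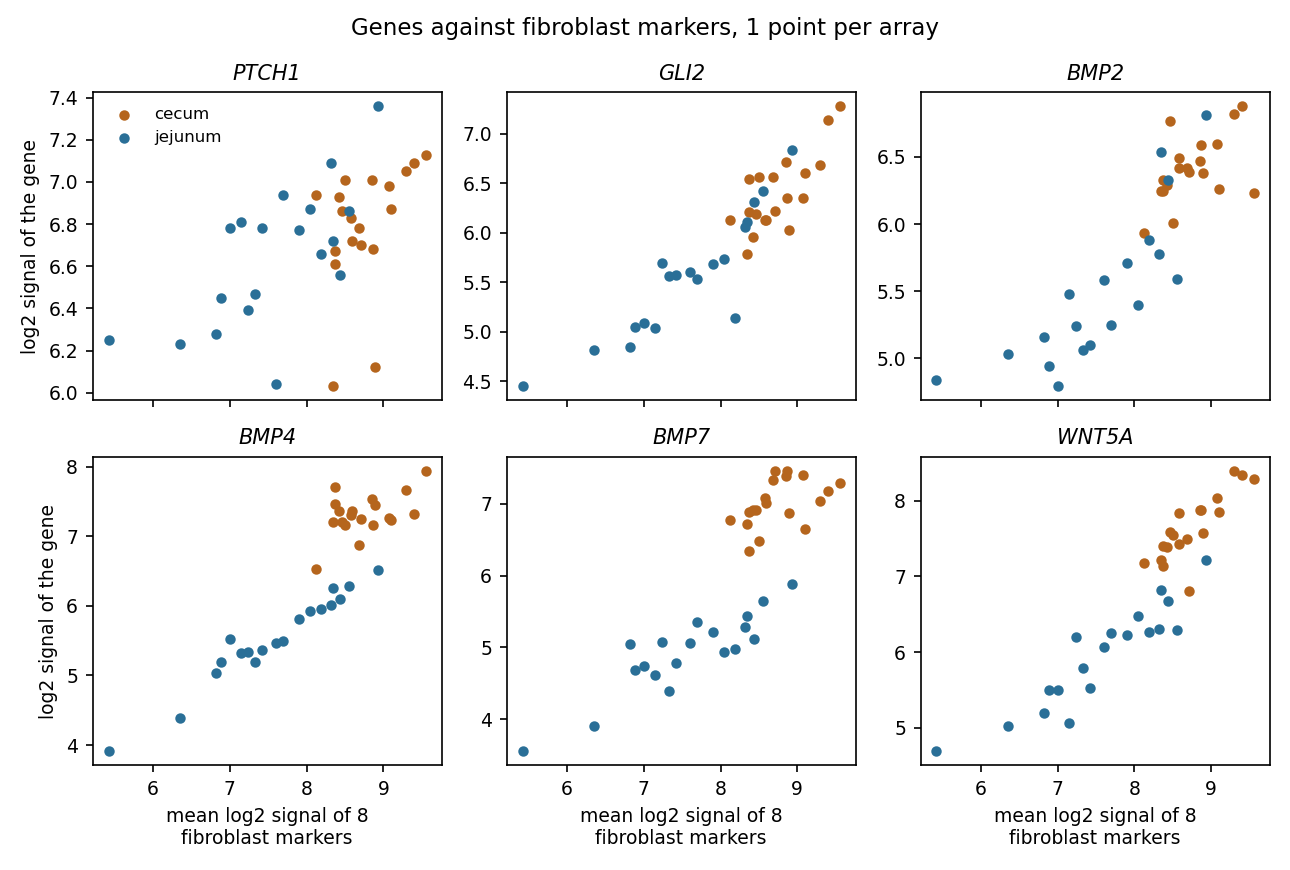
Log2 signal of each gene against the mean log2 signal of 8 fibroblast markers, 1 point per array, for 19 cecal (orange) and 19 jejunal (blue) arrays. In jejunum all 6 genes go up with the markers, most closely *BMP4* (r = 0.98). All jejunal points of *BMP4* and *BMP7* lie below all cecal ones, which was fixed by their values before the markers were looked at. A tissue difference at an equal marker level was not tested.

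The genes most like each of the 6 were sought by Pearson's r of the signals after the mean of each tissue was removed, over 38 arrays, as a description. *GLI2* was most like *GNG12* (0.91), *FOXF1* (0.90) and the smooth muscle kinase gene *MYLK* (0.90), of which *FOXF1* is in the Hedgehog list and *MYLK* among the smooth muscle markers. *BMP4* was most like *MMP2*, the gene of a matrix protease, the integrin gene *ITGA9* and the elastic fibre gene *FBLN5* (0.90 each). In the same order, their r with *BMP4* was 0.54, 0.69 and 0.69 in cecum and 0.97, 0.94 and 0.95 in jejunum. *FBLN5* had the opposite tissue difference to *BMP4*, -1.18 (adjusted p = 6.8e-05). *WNT5A* was most like *BICC1* (0.90), *VEGFRKDRL* (0.89) and *PDGFRA* (0.89), a growth factor receptor gene that is also one of the fibroblast markers.

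For *BMP7* the closest genes were *CLMP* (0.84), *ABCC9* (0.83) and *OGN* (0.82), and for *BMP2* they were *RGS4* (0.84), the mesenchymal transcription factor gene *TCF21* (0.81) and the collagen gene *COL4A2* (0.81). *RGS4*, *TCF21* and *COL4A2* reached an r of 0.53, 0.49 and 0.46 with *BMP2* in cecum and 0.91, 0.87 and 0.89 in jejunum. For *CLMP*, *ABCC9* and *OGN* the r with *BMP7* was 0.55, 0.58 and 0.57 in cecum and 0.93, 0.92 and 0.89 in jejunum. *PTCH1* kept other company: *PTPN21* (0.83), the calcium channel gene *ITPR2* (0.81) and the transcription factor gene *NFIB* (0.80), with tissue differences of -0.03 (adjusted p = 0.895), -0.30 (adjusted p = 0.0356) and -0.46 (adjusted p = 9.0e-06). No gene stood among the 3 closest of more than 1 of the 6.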

How the data were processed

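Total RNA of mucosa scrapings was hybridised to Affymetrix Chicken Gene 1.0 ST arrays, and the authors analysed the scans with the Transcriptome Analysis Console 4.0.1.36. The values used are the deposited normalized log2 signals of 18308 probe sets. How the background was corrected and the probes normalized and summarized is not given in the sources used here. Names come from the platform annotation, which gives 1 symbol to 12300 probe sets. Arrays have no read depth, so their number limits the precision.

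The comparison of tissues used lmFit and eBayes of limma 3.58.1 (R 4.3.3) with a term for tissue only. P-values were adjusted by the Benjamini-Hochberg method over the whole array, and FCR is the ratio after averaging log2 signals. Correlations over 19 birds used two-sided tests with 100000 permutations (scipy 1.17.1), adjusted over 6, 30 and 48 relations. These numbers are smaller than planned because 6 of 8 genes were measured. Arrays of a bird shared little (mean r of deviations from the tissue means 0.114, from -0.133 to 0.411, and above 0 in 14 of 19 birds), and the pairing rests on the numbers in the labels and the methods.

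The 8 genes and all lists were chosen with earlier results of these data known. Named from the lists were fixed genes (*DHH*, *SUFU*, *ID1*, *ID2* and *ID3* were not analysed here), in each list up to 5 further genes with the largest difference at an adjusted p under 0.05, and for each of the 6 genes the 3 most alike. The steps were tested on simulated data. Promoter and protein sequences were not used here.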

Additional observations from a re-analysis of the deposited data

How the results depend on the processing

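The tissue differences were recomputed with the bird as a block, quantile normalization, arrays centred on their medians, a filter that kept the 11718 probe sets with a mean of at least 5 in either tissue, no moderation, a test against a 2-fold change (TREAT), array weights, averaged probe sets per gene, without the 4 least correlated arrays and without each bird in turn. *BMP4*, *BMP7* and *WNT5A* were DETs under each of these. The bird block gave an adjusted p of 2.1e-11 for *BMP7* (difference 2.08), 2.0e-09 for *BMP4* (1.78), 1.5e-08 for *WNT5A* (1.69), 3.5e-07 for *BMP2* (0.91), 5.6e-05 for *GLI2* (0.84) and 0.17 for *PTCH1* (0.14), and this pairing changed no call of the 6 genes. Without the 4 arrays *GLI2* (1.03) and *BMP2* (1.00) became DETs. Leaving out single birds changed no call, with differences of 0.10 to 0.17 for *PTCH1*, 0.75 to 0.91 for *GLI2*, 0.86 to 0.97 for *BMP2*, 1.69 to 1.85 for *BMP4*, 2.01 to 2.15 for *BMP7* and 1.60 to 1.77 for *WNT5A*.

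Counts of few genes moved. The share of all probe sets called was counted only in the fit with all arrays and a tissue term. The moved DET and adjusted p counts below therefore have no background beside them. The 2 Hedgehog DETs higher in cecum became 1 with quantile normalization, 0 with centred arrays and 0 with TREAT, and the 1 higher in jejunum became 0 with TREAT. The 2 Hedgehog genes higher in jejunum at the adjusted p became 1 with the bird block and 1 without the 4 arrays, *SCUBE2* being lost in both. The 3 BMP DETs higher in cecum became 1 with TREAT (*CHRDL1*) and 6 without the 4 arrays (*BMP5*, *BMPER* and *NBL1* added, the last named after its value was seen). The 2 higher in jejunum became 1 with the filter on low means, which leaves out *BMP3*, 0 with TREAT and 1 with the mean of probe sets. Without the 2 birds farthest from the median of the first-named gene, the 4 gene pairs in cecum became 2 (*PTCH1* with *GLI2* and with *WNT5A*). The 4 relations with markers in cecum also became 2 without the 2 birds whose list mean was farthest from its median. Of these, *WNT5A* with the fibroblast list was among the 4, and *BMP2* with that list was added (r = 0.60, adjusted p = 0.0402, against 0.0648 with all birds). Centring moved the median difference of all probe sets by -0.05, to -0.02, and quantile normalization by -0.01.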
